A study of Mus musculus with 614 samples.

Results

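Plasmacytoid dendritic cells (pDC) of mouse bone marrow were compared with dendritic cell precursors (pre-DC) that carry the surface protein SiglecH and lack Ly6C, over all genes. All 27 cells labelled as marrow pDC and all 70 cells labelled as SiglecH+Ly6C- pre-DC were taken, 97 of the 614 cells of the series, and no measured value entered the choice. The pDC gate was Lin-B220+SiglecH+. The pre-DC gate took Lin- cells with CD11c and Flt3 and without MHC class II, CD172α and B220, and within them those that were SiglecH+ and Ly6C-. Both gates came from untreated adult C57BL/6J mice of 7 to 10 weeks. The study profiled 12 gates of marrow and blood progenitors, each cell captured on a microfluidic chip, with cDNA primed by oligo(dT) and sequenced as a library of its own. No label names an animal or a pool, so each gate counted as 1 sample, and no test between the gates was possible. Values are TPM, a relative abundance scaled by transcript length and to a fixed sum per cell, from which the depth of a library cannot be read. Unless stated otherwise, a level is the mean over cells of log2(TPM + 1), a difference is pDC minus pre-DC on that scale, and an SD is over cells.

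pDC are long known as the cells that answer viral nucleic acids in endosomes with large amounts of type I interferon. They arise in the marrow from dividing precursors, need the transcription factor encoded by Tcf4 to keep their identity, and leave through the blood for lymphoid organs and the gut. Mature pDC are described as non-dividing cells with an extended secretory apparatus that present antigen less readily than conventional dendritic cells.

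The library numbers in the labels placed the gates in different runs: 24 pDC shared a run with the common dendritic cell progenitors (CDP), 3 pDC had another library prefix, and the pre-DC were split between a run shared with SiglecH+Ly6C+ pre-DC (51 cells) and one shared with SiglecH-Ly6C- pre-DC (19 cells). Gate and run therefore cannot be told apart by a fit. Instead, the difference against the pre-DC of each run, the difference between CDP and the mean of the other pre-DC gates of those runs, and the difference between the 24 pDC and the CDP of their own run are given where they matter. Genes at 1 TPM or more per cell, which stand in for depth, had a median of 4398 in pDC (3006 to 6005) and 4982.5 in pre-DC (3246 to 6596). The mitochondrial share of TPM had a median of 9.38% in pDC and 6.71% in pre-DC, and 1 pDC reached 58.2%, with the next at 23.1%. The part of depth and of RNA quality in the differences was not tested.

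A gene entered the comparison when 20% of the cells of pDC or of pre-DC reached 1 TPM, which left 9313 genes. In pDC, 2.89% of them were higher by 1 or more and 21.7% (2024 genes) were lower by 1 or more. Below, "higher" and "lower" of a counted gene mean this threshold. The median difference of all 9313 genes was -0.41, and 73.2% of them lay below 0, so the values of each list are read beside that shift. Against the pre-DC of each run separately, 186 genes (2%) were higher and 1351 (14.5%) lower in both comparisons. Between CDP and the other pre-DC gates, 17.5% of the higher genes differed by 1 or more in the same direction and 7.43% in the opposite one. Of the lower genes, 8.50% differed in the same direction and 23.3% in the opposite one. The median of that CDP contrast over all genes tested was 0.20. Its shares past 1 over all genes tested are not given. These values therefore do not show whether the counted genes move with the run more than other genes do.

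The 5 marker transcripts chosen for this comparison are described first. They are among its largest differences, so their values are no independent check of it. Ccr9, the receptor for the gut and thymus chemokine CCL25, was at 5.80 TPM in the lowest, 321.6 TPM in the median and 2601 TPM in the highest pDC, against 0, 1.02 and 1040.4 TPM in pre-DC. It was at 100 TPM or more in 18 of 27 pDC and in 5 of 70 pre-DC, and the ranges overlapped. Klk1, a tissue kallikrein, ran from 0 over a median of 57.9 to 3029.65 TPM in pDC, against a median of 0 and a maximum of 213 TPM in pre-DC. It reached 100 TPM in 13 of 27 pDC (48.1%, with an exact Clopper-Pearson 95% range of 28.7 to 68.1) and in 1 of 70 pre-DC (1.43%, 0.0362 to 7.70). Ccr9 was thus detected in every pDC, while Klk1 was at 1 TPM or more in 17 of 27. Lair1, an inhibitory receptor for collagen, had 0, 218 and 3137 TPM in pDC and 0, 2.94 and 1479 TPM in pre-DC. Stmn1, which destabilises microtubules and is abundant in dividing cells, had 0, 8.17 and 6253 TPM in pDC and 0, 2122 and 8399 TPM in pre-DC. Vim, an intermediate filament protein, had 0, 16.9 and 1328 TPM in pDC and 0, 728 and 4971 TPM in pre-DC. For Stmn1, 8 of 27 pDC and 55 of 70 pre-DC were at 100 TPM or more, and the pDC left a gap between 26.7 and 399.8 TPM in which no pDC lay. Vim was at 100 TPM or more in 9 of 27 pDC and 61 of 70 pre-DC. Klk1 and Stmn1 share 23.97% and 18.9% of their 50-base stretches with other annotated genes, so the split of their reads is uncertain.

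**Figure D1:**
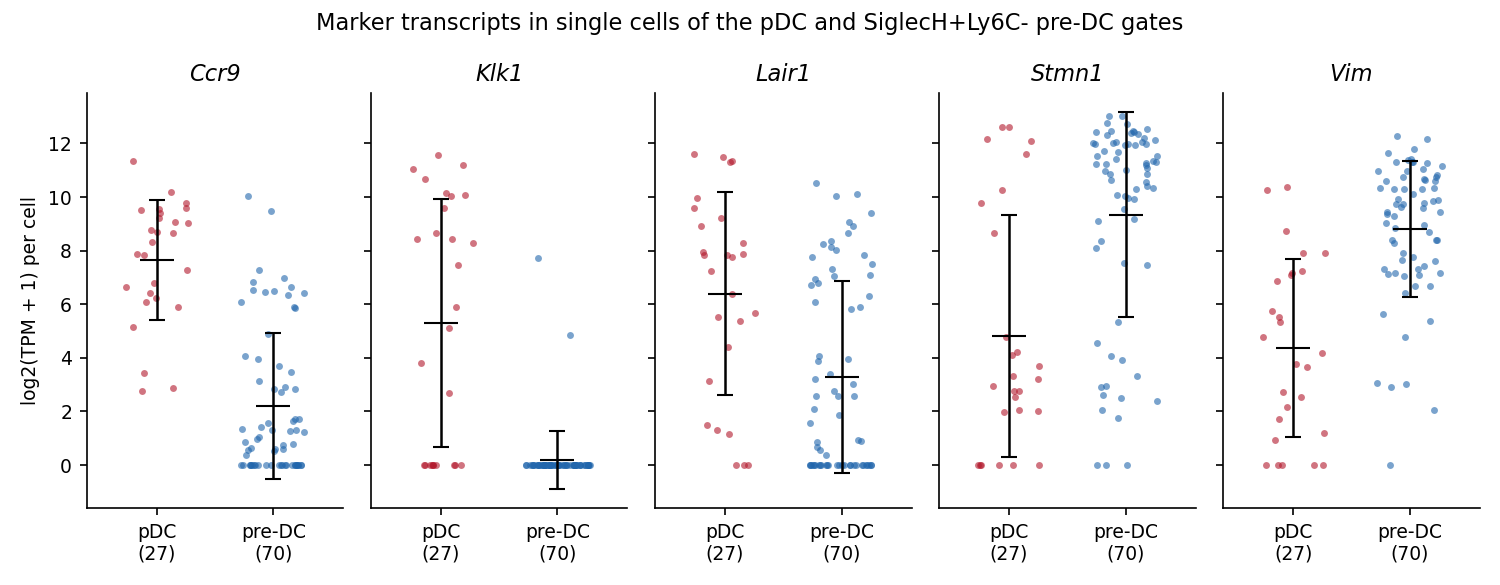
Marker transcripts per cell. The vertical axis is log2(TPM + 1), points are single cells (27 pDC, 70 pre-DC), and bars are the mean and SD over cells. Ccr9, Klk1 and Lair1 lie higher in pDC, Stmn1 and Vim lie lower, and the cells of the gates overlap for all 5.

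Both gates carried the genes that mark the pDC lineage. Siglech, the sort protein common to both, was at 100 TPM or more in 26 of 27 pDC and 61 of 70 pre-DC. Tcf4 had a level of 9.31 in pDC and 9.29 in pre-DC, Irf8, a factor needed for dendritic cell development, 10.03 and 9.85, and Ly6d, a lymphoid surface protein, 10.95 and 10.80. Of 26 measured pDC identity genes, 10 were higher (38.5%, beside 2.89% of all genes tested) and 2 were lower (7.69%, beside 21.7%). The median difference was 0.80, beside -0.41 for all genes. The list was chosen with earlier results of these data known, so its shares are not read as an enrichment. Spib, a factor that works with Tcf4 in pDC, was among the higher ones (1.75, but 0.77 against the pre-DC of the SiglecH-Ly6C- run), as were Cox6a2 (2.58), a cytochrome oxidase subunit, and Sdc4 (2.55), a syndecan. The 2 lower ones were Cd7 (-1.97), a lymphoid surface receptor, and Tex2 (-1.32), a lipid transfer protein. For Cox6a2 and Sdc4 the CDP, too, were above the other pre-DC gates, by 3.87 and 3.85. Ly6c2 was higher in pDC by 4.50. It encodes a protein whose absence was a criterion of the pre-DC sort, yet 35 of 70 pre-DC were at 100 TPM or more, and 14.4% of its sequence is shared with other genes.

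The 15 largest differences toward pDC ran from 5.45 to 2.504 and the 15 largest toward pre-DC from -4.52 to -3.37. All 30 kept a size of 1 or more against the pre-DC of either run. They were chosen for their size over these same cells, so this is no independent check. After Ccr9 and Klk1 came D13Ertd608e (4.56), of which 89.6% of the sequence is shared with other genes, and Cd74 (4.23), the invariant chain of MHC class II. They were followed by Ly6a (3.903), the Sca-1 antigen, Fyn (3.54), a Src-family kinase, Pltp (3.42), a phospholipid transfer protein, and Khk (3.29), ketohexokinase. Lair1 (3.11), Krcc1 (2.86), Cd164 (2.70), a sialomucin, Cd200 (2.60), the ligand of an inhibitory receptor, Cox6a2, Sdc4 and Cd4 (2.504) completed the set. For Ly6a, 18.97% of the sequence is shared with other genes. For Cd164, too, the CDP were above the other pre-DC gates, by 1.46. Fyn had 0, 99.0 and 2240.0 TPM as its lowest, median and highest value in pDC, and 0, 0.975 and 904.4 TPM in pre-DC. Fyn was at 1 TPM or more in 24 of 27 pDC and 35 of 70 pre-DC, and at 100 TPM or more in 13 and 16 of them. Cd4, a co-receptor that pDC of mouse and human carry, had 0, 4.59 and 292.1 TPM in pDC and 0, 0 and 44.9 TPM in pre-DC. It reached 100 TPM in 4 of 27 pDC and in 0 of 70 pre-DC, which allows a share of up to 4.29%.

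The 15 genes at the other end mixed structure, respiration and protein handling. Ranbp1 (-4.40) regulates the Ran cycle of nuclear transport, Etfb (-4.14) passes electrons from fatty acid oxidation to the respiratory chain, and Anxa6 (-3.95) binds membranes in a calcium-dependent way. Atp5h (-3.63) and Atp5d (-3.40) are subunits of ATP synthase, Trap1 (-3.57) is a mitochondrial chaperone, Psma1 (-3.53) a subunit of the proteasome, and Tecr (-3.49) an enzyme of fatty acid elongation. Bex6 (-3.59), the zinc finger gene Zfp422 (-3.44), the splicing protein gene Snrpe (-3.41), the nuclear envelope gene Nrm (-3.41) and Capza2 (-3.37), which caps actin filaments, made up the rest with Stmn1 and Vim. Trap1 had 0, 0 and 7.73 TPM in pDC and 0, 29.9 and 1456 TPM in pre-DC. Trap1 reached 100 TPM in 0 of 27 pDC, which allows a share of up to 11.1%, and in 28 of 70 pre-DC. Of the 15 genes, 3 were also lower in CDP than in the other pre-DC gates by 1 or more. These were Anxa6 and Vim, with differences of -3.76 and -2.44, and Atp5h. Atp5h had a level of 7.64 in CDP, 9.18 in SiglecH+Ly6C+ pre-DC and 8.38 in SiglecH-Ly6C- pre-DC. Bex6 and Zfp422 were higher in CDP, with differences of 2.94 and 3.05. Against the CDP of their own run the 24 pDC were lower in Anxa6, Vim and Atp5h as well, with differences of -2.25, -3.43 and -2.77. Etfb, Atp5h, Stmn1 and Ranbp1 share between 15.6% and 44.8% of their sequence with other genes.

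Genes of DNA replication were lower in pDC as a group, while the share of lower genes of G2 and mitosis was near that of all genes. The replication list holds genes of origin licensing, the replication fork and nucleotide supply, many of which the E2F factors are known to control. The list of G2 and mitosis holds kinases, spindle and chromosome proteins, many of which the DREAM complex controls through the CHR element. To show the sequences behind these groups, the 250 bases before the start of 3 lower replication genes with the E2F letters and 2 lower mitotic genes with the CHR letters follow, 5′ to 3′ on the strand of the gene, from RefSeq on GRCm38.p6. Capitals mark the letters searched: TTTGGCGC, TTTCCCGC, TTTCGCGC or TTTGCCGC on either strand for E2F, and TTTGAA on either strand for CHR. Overlapping matches run together. Cdk1 holds 1 match of the E2F letters and 2 of the CHR letters.
Mcm5, chr8:75109259-75109508, plus strand: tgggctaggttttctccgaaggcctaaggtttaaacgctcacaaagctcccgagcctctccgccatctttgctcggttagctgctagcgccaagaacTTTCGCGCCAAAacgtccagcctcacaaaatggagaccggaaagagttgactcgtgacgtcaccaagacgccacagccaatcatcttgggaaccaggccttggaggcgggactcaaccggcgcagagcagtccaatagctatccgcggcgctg
Hells, chr19:38930740-38930989, plus strand: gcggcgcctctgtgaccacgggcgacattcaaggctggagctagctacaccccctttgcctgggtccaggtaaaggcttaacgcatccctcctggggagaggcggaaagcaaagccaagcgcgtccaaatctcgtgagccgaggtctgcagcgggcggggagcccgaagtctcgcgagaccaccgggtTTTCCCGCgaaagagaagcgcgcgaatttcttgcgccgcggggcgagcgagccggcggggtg
Mcm6, chr1:128359706-128359955, minus strand: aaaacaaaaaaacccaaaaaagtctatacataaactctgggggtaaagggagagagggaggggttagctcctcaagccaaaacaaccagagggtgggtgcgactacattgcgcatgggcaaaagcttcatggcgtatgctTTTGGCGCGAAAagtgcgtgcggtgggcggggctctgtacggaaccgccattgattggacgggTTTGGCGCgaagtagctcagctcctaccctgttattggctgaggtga
Cdk1, chr10:69352913-69353162, minus strand: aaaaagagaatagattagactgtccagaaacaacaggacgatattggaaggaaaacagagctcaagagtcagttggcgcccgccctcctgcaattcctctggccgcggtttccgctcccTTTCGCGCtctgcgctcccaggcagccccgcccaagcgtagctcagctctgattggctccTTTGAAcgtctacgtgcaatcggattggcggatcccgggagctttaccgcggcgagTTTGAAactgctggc
Top2a, chr11:99024190-99024439, minus strand: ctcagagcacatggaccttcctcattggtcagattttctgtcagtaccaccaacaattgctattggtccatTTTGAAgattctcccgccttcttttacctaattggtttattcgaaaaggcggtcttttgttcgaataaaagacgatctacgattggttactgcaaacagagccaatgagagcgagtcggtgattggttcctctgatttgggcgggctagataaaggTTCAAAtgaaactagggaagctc
The E2F letters stood in 6 of 28 replication promoters in the table (21.4%), beside 3.91% of the 6156 promoters of genes tested. The CHR letters stood in 7 of 24 promoters of the G2 and mitosis list (29.2%), beside 11.2% of the promoters of genes tested. A match describes the letters only.

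Of 32 replication genes, 23 were lower, 0 were higher and the median difference was -1.66. Of these, 19 were lower against the pre-DC of each run taken alone. Mcm5, a subunit of the replicative helicase, had 0, 0.72 and 530.2 TPM in pDC and 0, 28.2 and 1326 TPM in pre-DC, a difference of -3.27. Its partner Mcm4 differed by -3.19 and Mcm3 by -3.03. Hells, a chromatin remodeller of replicating cells, and Mcm6 differed by -2.26 and -1.99. Mcm5 was at 1 TPM or more in 13 of 27 pDC and 63 of 70 pre-DC. The CDP of the pDC run were above the other pre-DC gates for this list, with a median of 0.89, and the 24 pDC lay below those CDP with a median of -1.40.

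Of 26 measured G2 and mitosis genes, 7 were lower (26.9%, beside 21.7% of all genes tested), 0 were higher and the median was -0.83. Kif23, a motor of cell division, differed by -2.07. Cdk1, the mitotic kinase, had 0, 0 and 982.1 TPM in pDC and 0, 0 and 2732 TPM in pre-DC, a difference of -1.50. Top2a, which untangles replicated chromosomes, had 0, 5.30 and 1273 TPM in pDC and 0, 65.8 and 4686 TPM in pre-DC, a difference of -1.41. The CDP were below the other pre-DC gates for this list as well, with a median of -1.37, and the 24 pDC did not lie below the CDP of their run, with a median of 0.12 and 1 of 26 lower (3.85%, beside 26.6% of all genes). The mitotic list lay below the pre-DC compared both for pDC and for CDP, while the replication list did so for pDC only. Both contrasts mix gate and run, and the part of the run was not tested.

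Among 10 measured G1 genes, 4 were lower (40%, beside 21.7% of all genes tested) and the median was -0.78. The median was 0.27 once the cells with 8 or more replication genes or 5 or more mitotic genes at 10 TPM were left out. The 4 were the D-type cyclin Ccnd3 (-2.63), its kinases Cdk4 (-2.55) and Cdk6 (-2.48), and Ccne2 (-1.05, and -0.45 against the pre-DC of the SiglecH-Ly6C- run). Cdk6 had 0, 2.92 and 488.1 TPM in pDC and 0, 122 and 1448 TPM in pre-DC. It was at 1 TPM or more in 21 of 27 pDC and 55 of 70 pre-DC, but at 100 TPM in 5 and 42 of them. Of 13 measured inhibitors of the cycle and pocket proteins, 1 was higher and 0 were lower, with a median of -0.30. The higher one was Btg2 (2.27), an antiproliferative gene that early response signals also induce. It differed by 2.83 and 0.77 against the pre-DC of the SiglecH+Ly6C+ and SiglecH-Ly6C- runs, and CDP were above the other pre-DC gates by 2.70. Cdkn1b, the p27 inhibitor, differed by -0.30 and Cdkn2d, the p19 inhibitor, by 0.65.

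Cells were then counted by the cycle genes they carried. A cell was taken to carry replication genes when at least 8 of 32 were at 10 TPM or more, and mitotic genes when at least 5 of 27 were. Replication genes were carried by 6 of 27 pDC (22.2%, with an exact Clopper-Pearson 95% range of 8.62 to 42.3) and by 50 of 70 pre-DC (71.4%, 59.4 to 81.6). Mitotic genes were carried by 8 of 27 pDC (29.6%, 13.8 to 50.2) and by 28 of 70 pre-DC (40%, 28.5 to 52.4). The intervals were apart for replication and overlapped for mitosis, and they cover counting error only. The shares depend on the TPM that counts as carried: at 1 TPM, replication genes were carried by 81.5% of pDC and 95.7% of pre-DC, and mitotic genes by 70.4% and 85.7%. Replication genes without mitotic ones were found in 0 of 27 pDC, which allows a share of up to 11.1%, and in 25 of 70 pre-DC (35.7%). In the CDP of the pDC run this was 26 of 58 cells (44.8%), and 39 of 58 CDP carried replication genes (67.2%). Of the cells, 1 pDC and 6 pre-DC lay within 1 gene of the replication threshold, and 0 pDC and 9 pre-DC within 1 gene of the mitotic one.

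**Figure D2:**
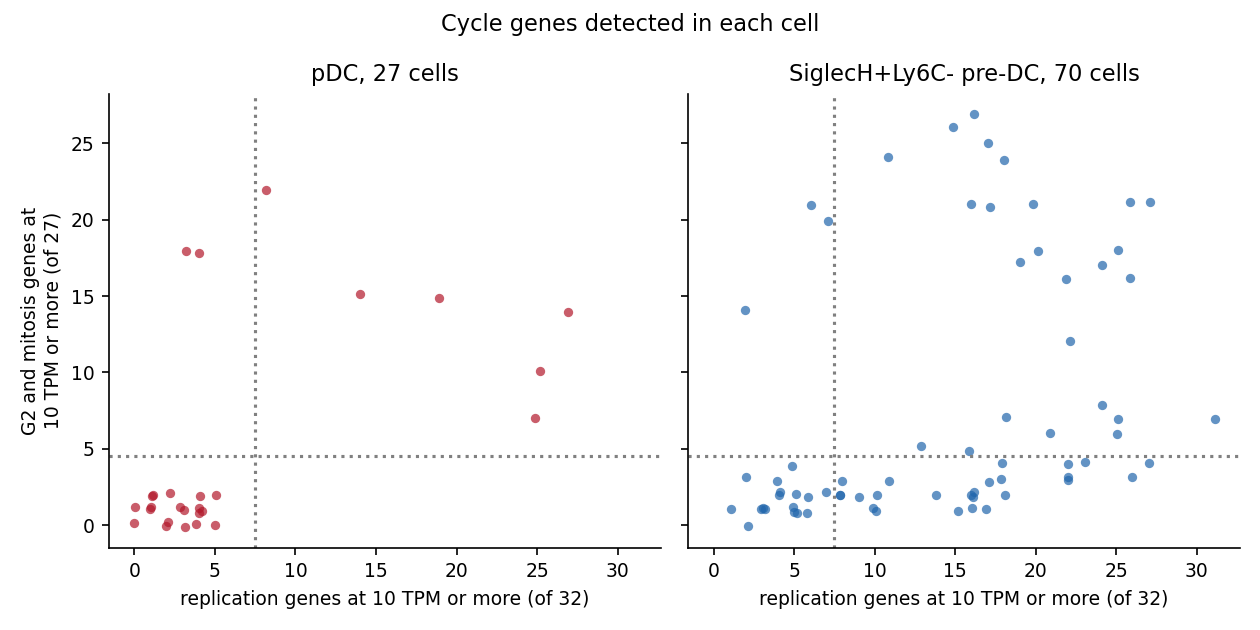
Number of replication genes (horizontal axis, of 32) and of G2 and mitosis genes (vertical axis, of 27) at 10 TPM or more in each cell, with the thresholds as dotted lines. The pDC form a group near the origin and 8 cells above the mitotic threshold, while 25 pre-DC lie to the right of the replication threshold and below the mitotic one.

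The 8 pDC with cycle genes differed from the other 19 in genes that the choice did not use. Cd74 was at 100 TPM or more in 1 of the 8 and in 16 of the 19, with medians of 12.4 and 1556 TPM. D13Ertd608e was at 100 TPM or more in 1 of 8 and 10 of 19, Klk1 in 2 of 8 and 11 of 19, and Pltp in 1 of 8 and 8 of 19. Xbp1, a factor of the secretory programme, had a level of 4.15 ± 3.59 in the cells with cycle genes and 5.79 ± 3.17 in those without (SD over cells). Ly6d was at 100 TPM or more in 8 of 8 and 17 of 19, with medians of 9789 and 1750.05 TPM, and Ccr9 had levels of 7.83 ± 1.70 and 7.57 ± 2.47. The difference in Ccr9 was small beside its SD over cells, whereas Cd74 was low in 7 of the 8 pDC with cycle genes. Some other pDC genes had smaller shares in these cells too. Bst2, an interferon-induced surface protein of pDC, was at 100 TPM or more in 2 of 8 and 16 of 19. Spib was at that level in 3 of 8 and 11 of 19. Others did not have smaller shares: Cox6a2 was at that level in 8 of 8 and 17 of 19. Sdc4 reached it in 8 of 8 and 16 of 19, Irf8 in 8 of 8 and 18 of 19, and Lair1 in 5 of 8 and 10 of 19. Siglech had medians of 711 and 2677 TPM, and H2-Aa was at 100 TPM or more in 0 of 8 and 11 of 19. In pre-DC, Cd74 was at 100 TPM or more in 8 of 53 cells with cycle genes and in 7 of 17 without. The pDC with cycle genes had a median of 4747.5 genes and those without 4237, and these cells are few, from an unknown number of mice.

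**Figure D3:**
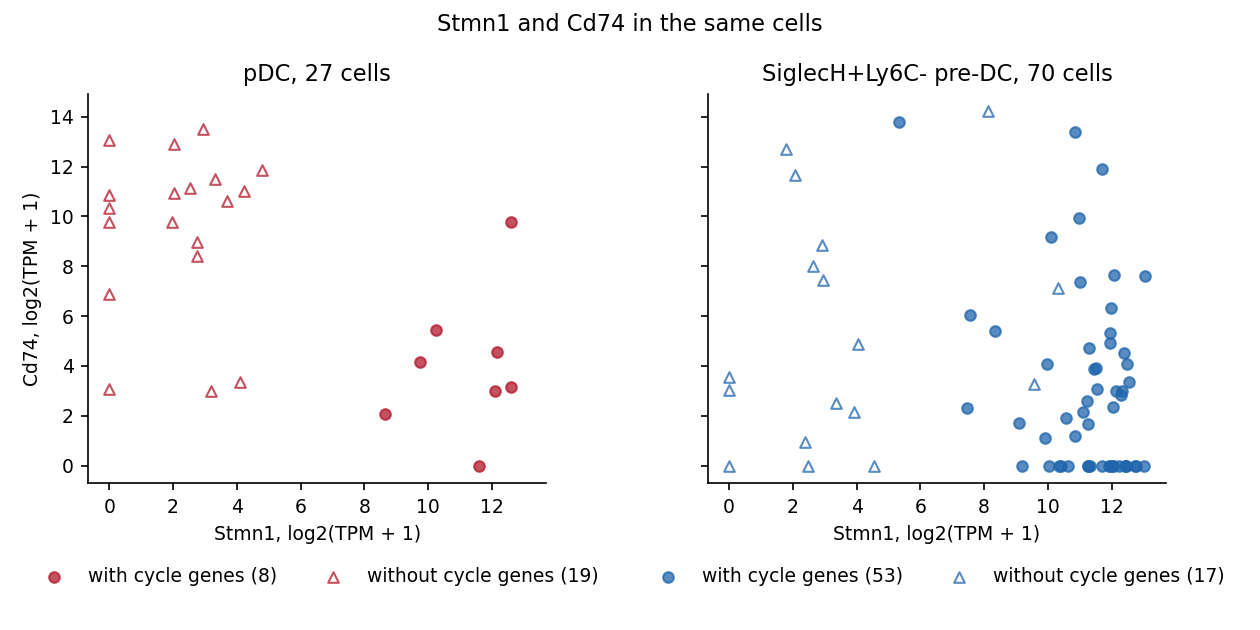
Stmn1 (horizontal axis) and Cd74 (vertical axis), both as log2(TPM + 1), in each cell. Filled circles are cells with cycle genes and open triangles cells without. In pDC, 8 cells are at 100 TPM or more of Stmn1 and 17 at 100 TPM or more of Cd74, and 1 cell is both.

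Setting only cells without cycle genes side by side left 19 pDC and 17 pre-DC. By construction this removed the difference of the cycle lists: the median over the same genes was -0.12 for replication and -0.21 for G2 and mitosis, and that of G1 genes turned to 0.27, beside -0.16 for all genes. Stmn1 then differed by -1.47 in place of -4.52. Vim kept -4.34, Ranbp1 -3.63 and Atp5h -4.21, and Ccr9 kept 5.03, Klk1 5.77 and Cd74 4.21. Etfb (-2.03), Bex6 (-2.14), Trap1 (-2.10), Nrm (-2.16) and Anxa6 (-2.44) were smaller by more than 1.5 times. The gain of Xbp1 was 3.10 in these cells and 1.72 over all cells.

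Genes of mitochondrial energy metabolism encoded in the nucleus were lower in pDC as a group. All 77 measured genes of the list, subunits of the respiratory chain and ATP synthase, had a difference below 0. Of these, 52 were lower and 0 higher, and the median was -1.38. Against the pre-DC of each run taken alone, 45 were lower. The list does not hold the cytochrome oxidase subunit gene Cox6a2, which was higher in pDC, with levels of 9.60 in pDC and 7.02 in pre-DC. Atp5h had 0, 58.1 and 1184 TPM in pDC and 0, 547 and 2810 TPM in pre-DC, and Ndufb11, a subunit of complex I, 0, 2.62 and 951.9 TPM in pDC and 0, 179.3 and 1947 TPM in pre-DC (difference -3.25). Ndufb11 was at 1 TPM or more in 14 of 27 pDC and 65 of 70 pre-DC. At the other end, Cox6c, a subunit of cytochrome oxidase, differed by -0.07, with 0, 445.4 and 2029 TPM in pDC and 0, 244.9 and 1538 TPM in pre-DC. In contrast, 12 measured proteins encoded by the mitochondrial genome had a median of 0.29, with 1 higher (mt-Nd2, 1.28) and 1 lower (mt-Nd5, -1.07). Of these, mt-Atp6 (difference 0.89) shares 99.5% of its sequence with another annotated gene. The CDP did not lie below the other pre-DC gates for the nuclear list (median 0.30), though they did for Atp5h. For the list, the 24 pDC lay below the CDP of their run (median -1.59, beside -0.39 for all genes). Among cells with like numbers of genes (19 pDC and 31 pre-DC) the median was -1.25, and without cells carrying cycle genes it was -0.91. On the log2 of the mean TPM, which weights cells with much of a transcript, the list's median was -0.36, close to -0.30 for all genes.

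Other metabolic groups lay below the shift of all genes to different degrees, or near it. Of 17 measured genes of the tricarboxylic acid cycle 8 were lower (47.1%, beside 21.7% of all genes tested) and 0 higher (median -0.86). Among them Mdh1, malate dehydrogenase, had 0, 10.99 and 1768 TPM in pDC and 0, 372 and 2827 TPM in pre-DC. The glycolysis list, which also holds Khk of fructose metabolism, was divided. Of its 15 genes 7 were lower (46.7%) and 3 higher (20%, beside 2.89% of all genes tested), with a median of -0.996. Eno1 (-2.38), Pgk1 (-2.37), Ldha (-2.13) and Gapdh (-2.11) were lower, and Khk, Ldhb (1.57) and Slc2a3 (1.35), a glucose transporter, were higher. Khk, the entry enzyme of fructose, had 0, 62.9 and 2098 TPM in pDC and 0, 0 and 1186 TPM in pre-DC. It was at 1 TPM or more in 17 of 27 pDC and 17 of 70 pre-DC. Eno1, Pgk1 and Ldhb share 25.99%, 53.9% and 20.99% of their sequence with other genes. Without cells carrying cycle genes the glycolysis median was -0.10.

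Of 23 measured genes of nucleotide and one-carbon synthesis, 10 were lower (43.5%, beside 21.7% of all genes tested) and 0 higher (median -0.89). At the low end were Ctps2 (-2.52), a CTP synthase, and Dut (-2.39), which removes dUTP. Ctps2 had 0, 0 and 5733 TPM in pDC and 0, 5.90 and 1766 TPM in pre-DC, so the single highest cell was a pDC. On the log2 of the mean TPM it turned to 0.22, and Dut turned to 0.19 without cells carrying cycle genes. Of 24 ribosome biogenesis genes 15 were lower and 0 higher (median -1.21), and of 23 genes for mitochondrial import and chaperones 14 were lower and 0 higher (median -1.24). Fatty acid and sterol synthesis had 5 of 26 genes lower (19.2%, beside 21.7% of all genes tested). Its median was -0.30, close to all genes, with Tecr and Hsd17b12 (-2.52), both of the elongation cycle, at the low end. Of 13 genes of fatty acid oxidation 4 were lower (30.8%, beside 21.7% of all genes tested), with a median of -0.71.

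**Figure D4:**
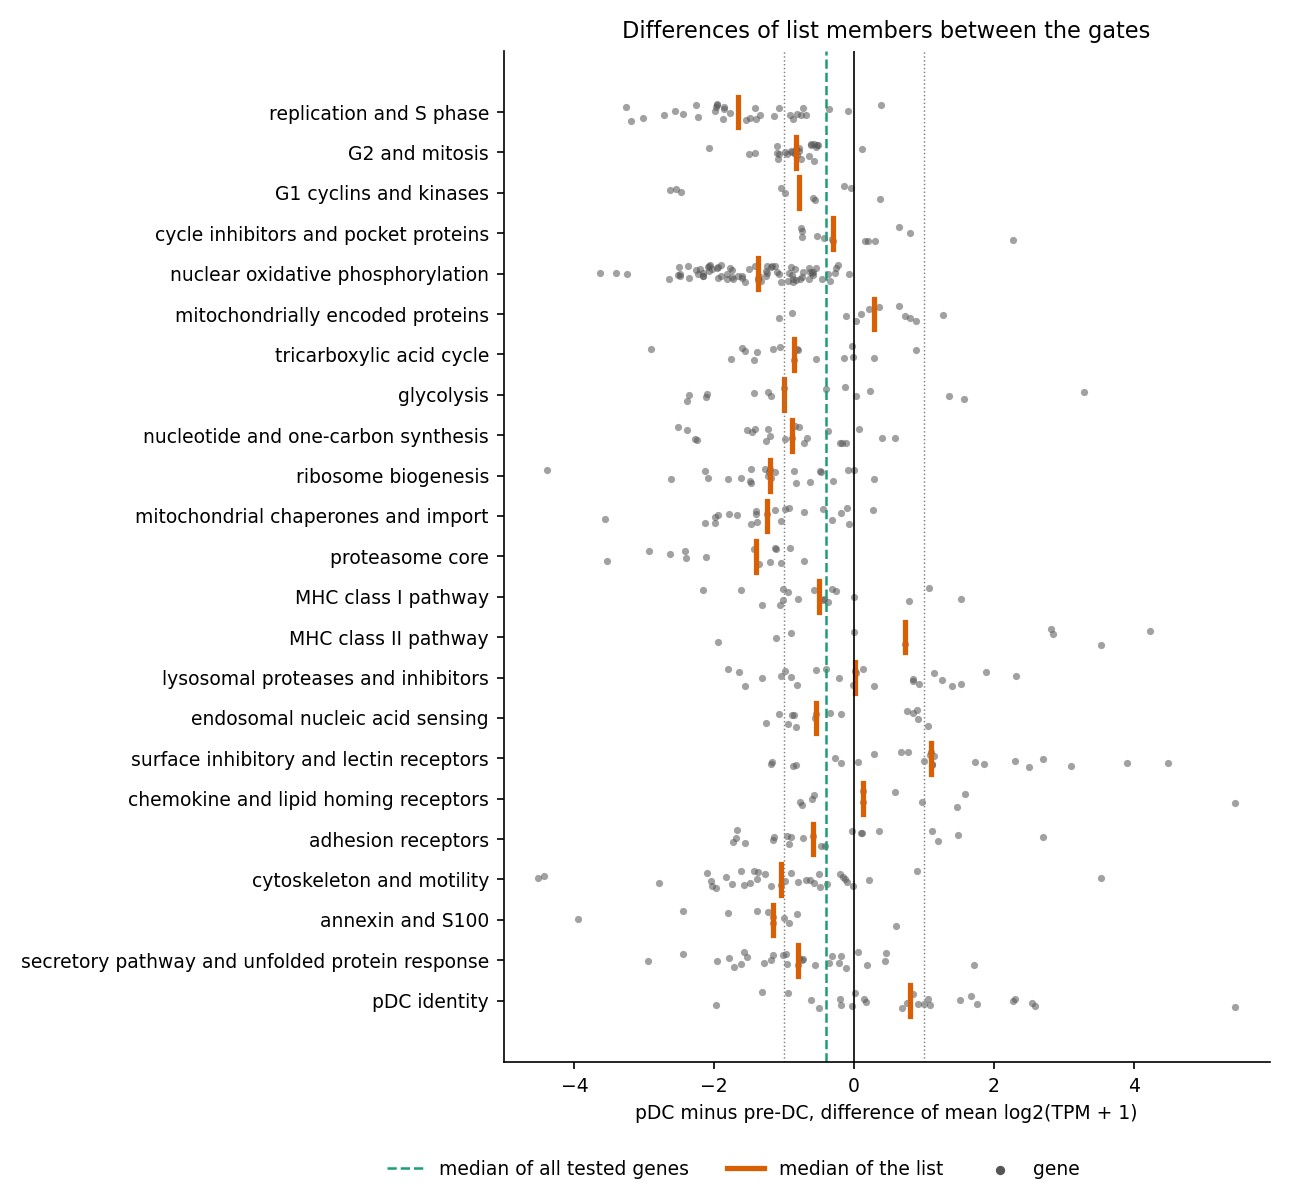
Differences of the measured members of 23 gene lists (grey points, pDC minus pre-DC in mean log2(TPM + 1)), with the median of each list (orange) and of all 9313 genes (green dashes, -0.41). Dotted lines mark -1 and 1. Replication, nuclear oxidative phosphorylation and proteasome genes lie to the left, surface receptors and pDC identity genes to the right. The MHC class II median also lies to the right. That list includes H2-Aa, H2-Ab1 and H2-Eb1, which encode a sort marker. Against the pre-DC of the SiglecH-Ly6C- run alone its median is -0.39.

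For trafficking, 11 of 24 chemokine and lipid receptors were measured. Of these, 3 were higher (27.3%, beside 2.89% of all genes tested), 0 lower and the median was 0.13. The higher ones included Ccr9 and P2ry14 (1.47), a receptor for UDP-sugars. P2ry14 was at 1 TPM or more in 12 of 27 pDC and 8 of 70 pre-DC, and at 100 TPM or more in 4 and 3 of them. Cxcr4, which retains cells in the marrow, had 0, 13.01 and 156 TPM in pDC and 0, 18.7 and 363 TPM in pre-DC, a difference of -0.78. S1pr1, which guides exit from the marrow, did not reach 1 TPM in 20% of the cells of either gate. Among 21 measured adhesion receptors 4 were higher and 6 lower (median -0.59). Cd164 (2.70) and the integrin chains Itgal (1.49), Itgb3 (1.19) and Itgb2 (1.11) were higher, of which Itgb2 differed by -0.04 against the pre-DC of the SiglecH-Ly6C- run. The 6 lower ones include Itgax, which encodes the sort marker CD11c. Itgb1 (-1.68), the partner of many integrins, and Selplg (-1.68), the ligand of P-selectin, were lower. Selplg had 0, 87.4 and 2173 TPM in pDC and 0, 489.5 and 1697 TPM in pre-DC, and in CDP it was also below the other pre-DC gates, with a difference of -1.32.

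Genes of the cytoskeleton were lower as a group: 18 of 35 were lower, 1 was higher (Fyn) and the median was -1.05. Below Stmn1 and Vim stood Arpc2 (-2.80), a subunit of the Arp2/3 complex that branches actin, with 0, 27.6 and 1356 TPM in pDC and 0, 327.1 and 3698 TPM in pre-DC. The leukocyte actin regulator Coro1a (-2.05) was detected in all 97 cells, with a median of 304.3 TPM in pDC and 1025.3 TPM in pre-DC. It was at 100 TPM or more in 17 of 27 pDC and 69 of 70 pre-DC. Without cells carrying cycle genes 16 of 35 were still lower, with a median of -0.79. On the log2 of the mean TPM the median was -0.47. Of 11 measured annexin and S100 genes 7 were lower (63.6%, beside 21.7% of all genes tested), with a median of -1.16. Anxa6 and S100a10 (-2.44), the partner of annexin A2, stood at the low end. The CDP were below the other pre-DC gates for this list by a larger amount (median -2.77), and the 24 pDC were below those CDP by a median of -0.64.

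Genes of antigen handling differed in both directions. Of 9 measured MHC class II genes 4 were higher (44.4%, beside 2.89% of all genes tested) and 2 lower (22.2%, beside 21.7%), with a median of 0.72. The higher ones were Cd74, H2-Aa (3.53), H2-Ab1 (2.84) and H2-Eb1 (2.81). Absence of MHC class II protein was a criterion of the pre-DC sort, so the H2 genes encode a sort marker and are not read as a finding. Their levels in SiglecH-Ly6C- pre-DC, labelled with the same MHC class II-negative sort, were 12.13, 12.11 and 9.81. Against the pre-DC of the SiglecH-Ly6C- run alone H2-Ab1 differed by -0.39, and so did the list in its median. Cd74, whose protein guides class II molecules through the cell, had 0, 875.6 and 11786 TPM in pDC and 0, 5.66 and 19104.5 TPM in pre-DC, and was at 100 TPM or more in 17 of 27 pDC and 15 of 70 pre-DC. Against the pre-DC of the SiglecH+Ly6C+ and SiglecH-Ly6C- runs it differed by 4.78 and 2.76. In the SiglecH-Ly6C- run, whose other gate had a Cd74 level of 11.86, 18 of 19 pre-DC had 1 TPM or more of Cd74 but 4 of 19 had 100 TPM or more. H2-DMa, which loads peptides onto class II molecules, went the other way, with 0, 102 and 2160 TPM in pDC and 0, 481.9 and 4070.0 TPM in pre-DC (difference -1.95). H2-DMb2 differed by -1.12, and 24.8% of its sequence is shared with other genes.

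Of 25 lysosomal genes 6 were higher (24%, beside 2.89% of all genes tested), 5 were lower (20%, beside 21.7%) and the median was 0.01. Against the pre-DC of each run taken alone, 3 were higher and 4 lower. This list was chosen with earlier results of these data known, so its shares are not read as an enrichment. Ctsl, a lysosomal cathepsin, had 0, 238.5 and 3567 TPM in pDC and 0, 17.3 and 2194 TPM in pre-DC (difference 2.32). Lgmn, the asparaginyl endopeptidase, had 28.1, 329.9 and 4504 TPM in pDC and 26.3, 69.7 and 1021.8 TPM in pre-DC (difference 1.89 with SDs of 1.40 and 1.37). It reached 100 TPM in 25 of 27 pDC (92.6%, with an exact Clopper-Pearson 95% range of 75.7 to 99.1) and in 26 of 70 pre-DC (37.1%, 25.9 to 49.5). Lgmn was detected in all 97 cells, and CDP were above the other pre-DC gates for it by 1.44. Ctso (1.52) was higher too. Ifi30 (-1.81), the thiol reductase of lysosomes, Hexa (-1.65) and Lamp2 (-1.56) were lower, and Cst3 (-1.31), the cystatin inhibitor of cathepsins, was lower at medians of 620.5 TPM in pDC and 1132 TPM in pre-DC. Ctss, a cathepsin of class II presentation, differed by 0.03. Lamp2 turned to 0.58 without cells carrying cycle genes.

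**Figure D5:**
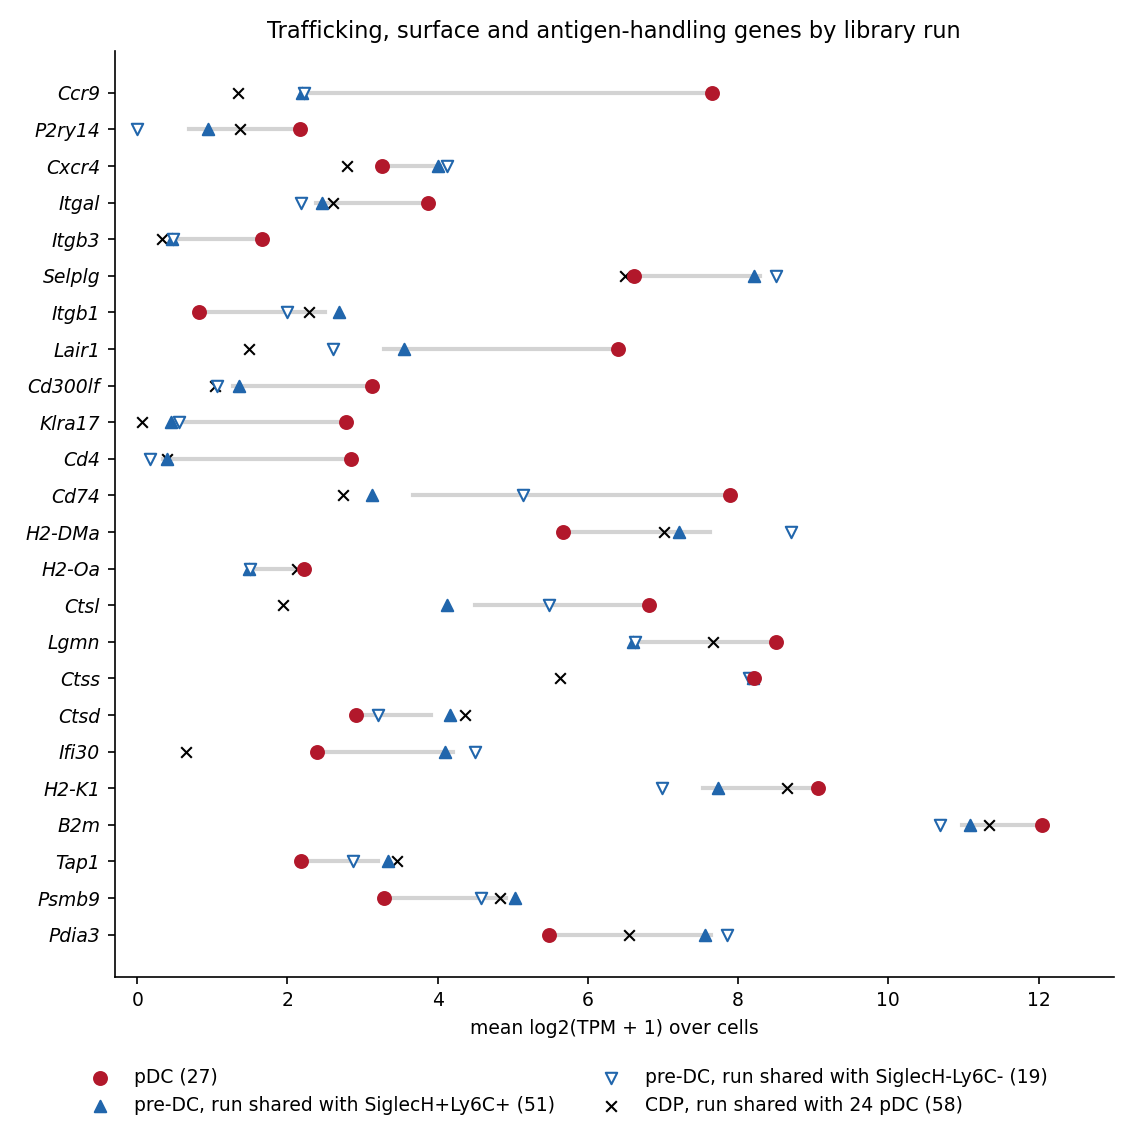
Mean log2(TPM + 1) of trafficking, surface and antigen-handling genes in pDC (red circles), in the pre-DC of each run (blue triangles) and in CDP, which share the run of 24 pDC (crosses); grey bars join the means of pDC and of all pre-DC. Ccr9, Lair1, Cd4 and Lgmn lie above the pre-DC of either run, and H2-DMa and Pdia3 below.

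The MHC class I pathway lay near the shift of all genes, with members that differed in both directions. H2-K1, a class I heavy chain, was higher by 1.53 and B2m, its light chain, by 1.07. Of 18 genes 6 were lower (33.3%, beside 21.7% of all genes tested), and the median was -0.51, beside -0.41. Against the pre-DC of each run taken alone, 1 was higher and 3 were lower. Without cells carrying cycle genes 22.2% were lower, beside 18.05% of all genes tested. B2m had 286.4, 5223 and 12123 TPM in pDC and 379, 2180.3 and 6942 TPM in pre-DC. The lower genes included Pdia3 (-2.16) and Tapbp (-1.31) of the peptide-loading complex and Psmb9 (-1.61), a subunit of the immunoproteasome. Tapbp differed by -0.84 against the pre-DC of the SiglecH-Ly6C- run and by 0.63 without cells carrying cycle genes, and B2m by 0.96 against the pre-DC of the SiglecH+Ly6C+ run. Of 14 core proteasome subunits 12 were lower and 0 higher, with a median of -1.40. Psma6 had 0, 0 and 1498 TPM in pDC and 0, 98.9 and 2576 TPM in pre-DC. The proteasome median was -1.98 for the 24 pDC against the CDP of their run, -1.45 among cells with like numbers of genes, and -0.53 on the log2 of the mean TPM.

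The list of surface proteins holds inhibitory and lectin receptors along with other surface antigens and adaptors. Of 24 measured, 13 were higher (54.2%, beside 2.89% of all genes tested), 2 lower and the median was 1.10, and 1 of the 13, Ly6c2, encodes a sort marker. This list, too, was chosen with earlier results of these data known, so its shares are not read as an enrichment. Besides Ly6a, Lair1, Cd164 and Cd4 the higher genes included Klra17 (2.30), a lectin-like receptor, and Cd300lf (1.86), a receptor for lipids. Klra17 had 0, 0 and 1030.9 TPM in pDC and 0, 0 and 1480.2 TPM in pre-DC, and was at 100 TPM or more in 5 of 27 pDC and 2 of 70 pre-DC, so its mean came from few cells. Fcer1g (-1.19), an adaptor that carries the signal of many such receptors, and Cd47 (-1.17), the signal against engulfment, were lower, while the adaptor Tyrobp was higher by 1.10. Fcer1g differed by -0.92 against the pre-DC of the SiglecH+Ly6C+ run, and Tyrobp by 0.74 against those of the SiglecH-Ly6C- run. For this list the CDP lay slightly below the other pre-DC gates (median -0.32), and the 24 pDC lay above those CDP (median 2.11).

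Few sensing genes passed the threshold, and part of the secretory genes was lower. Of 15 measured genes of endosomal nucleic acid sensing 1 was higher (6.67%, beside 2.89% of all genes tested) and 2 lower (13.3%, beside 21.7%). The median was -0.54, beside -0.41 for all genes. Irf5 (1.05) was higher, and Myd88 (-1.08), the adaptor of endosomal Toll-like receptors, and Ap3b1 (-1.26), an adaptor subunit of lysosomal transport, were lower. Each of these 3 was under 1 in size against the pre-DC of one run: Irf5 (0.77) and Ap3b1 (-0.42) against those of the SiglecH-Ly6C- run, and Myd88 (-0.42) against those of the SiglecH+Ly6C+ run. Tlr7, the sensor of single-stranded RNA, had a difference of 0.76 and Irf7, the master factor of interferon induction, one of 0.92. Irf7 had 0, 5.18 and 2482 TPM in pDC and 0, 0 and 1928 TPM in pre-DC. Of 29 genes of the secretory pathway 1 was higher (3.45%, beside 2.89% of all genes tested) and 12 lower (41.4%, beside 21.7%), with a median of -0.80. The higher one was Xbp1 (1.72), with 0, 50.9 and 2755 TPM in pDC and 0, 7.81 and 1598.5 TPM in pre-DC. Spcs1 (-2.95), of the signal peptidase, and Ssr3 (-2.45), of the translocon, were lower. Of 12 measured interferon-stimulated genes 1 was higher (Oasl2, 1.04, and 0.75 against the pre-DC of the SiglecH-Ly6C- run) and 0 lower (median -0.16), in untreated mice.

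Markers of other cell types were counted in the same cells. B lineage markers summed to between 0 and 441.97 TPM in pDC (median 3.61) and between 0.38 and 2135 TPM in pre-DC (median 5.26), with Pax5 at 0 in all 97 cells. The 11 monocyte markers, of which 0 were at 0 in every cell of a gate, summed to between 6.87 and 6240.4 TPM in pDC (median 390.75) and between 36.7 and 5193 TPM in pre-DC (median 1051.8). At least 3 monocyte markers were at 100 TPM or more in 4 of 27 pDC and 13 of 70 pre-DC, and 0 of 27 pDC and 0 of 70 pre-DC had 3 neutrophil, T and NK, erythroid, or basophil and mast cell markers at that level. At least 3 conventional dendritic cell genes were at 100 TPM or more in 3 of 27 pDC and 10 of 70 pre-DC. Igkc, an antibody light chain, was at 100 TPM or more in 6 of 27 pDC and 2 of 70 pre-DC. Mpo, a granule gene abundant in CDP, was at 1 TPM or more in 17 of 27 pDC and 2 of 70 pre-DC, with 0 pDC and 20 of 58 CDP at 100 TPM or more. The part of these cells or reads in the differences above was not tested.

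Over the 12 gates, the levels of Ccr9, Klk1 and Lair1 were highest in pDC. For Ccr9, pre-pro-B cells (4.44 ± 3.45) came after pDC (7.65 ± 2.24) and before SiglecH+Ly6C- pre-DC (2.20 ± 2.72), and the remaining gates lay at 1.34 or below. Neighbouring gates overlapped within their SDs over cells. Klk1 was at 5.30 ± 4.63 in pDC and 1.96 ± 3.66 in pre-pro-B cells, and at most 0.19 elsewhere. Stmn1 was lower than in pDC (4.82 ± 4.51) only in blood pre-DC (0.32 ± 1.27), and Vim was lowest in pDC of all 12 gates (4.36 ± 3.31). By the correlation of gate means over 12 gates and 12660 genes, a description without a test, the genes most like Ccr9 were Ccdc162 (Pearson r = 0.99), Pltp (0.98) and Atp2a1 (0.97). Those most like Klk1 were Atp2a1 (0.99), Slamf9 (0.99) and Scimp (0.97), and those most like Lair1 were Eepd1 (0.92), Clec10a (0.89) and Pir (0.88). The pattern of Stmn1 was most like those of Rbm3 (0.98), Srsf3 (0.96) and Snrpg (0.94), and that of Vim was like those of Flna and Pacs2 (0.89 each). Ccr9 and Klk1 were high in few gates, so their values rest on pDC and pre-pro-B cells.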

How the data were processed

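Single cells of 12 gates were sequenced, and the 27 pDC and 70 SiglecH+Ly6C- pre-DC were analysed here. The authors deposited TPM values per gene and cell, made with RSEM 1.2.19 on GRCm38, per the submitters' processing notes. The annotation used, like the aligner, is not given in the sources used here. Of 43280 gene symbols, 39469 were in GENCODE M21. Every cell column was matched to its label, and 0 columns were left unused.

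The replicate numbers in the labels only name cells, and no label names an animal, so each gate is 1 sample and no p-value is given. Means over cells of log2(TPM + 1) (pseudocount 1) were compared over genes that reached 1 TPM in 20% of cells or more of pDC or of pre-DC, and a difference of 1 or more was counted. Shares have 95% ranges by the exact Clopper-Pearson method, which cover counting error only; for a share of 0 the limit is 3 counts. Named genes are the 5 markers, the 15 largest differences each way among genes detected in 50% or more of the cells where they were higher (clone names, pseudogenes, antigen receptor segments, sort markers, Xist, Tsix, genes of the Y chromosome and those for ribosomal or mitochondrially encoded proteins left out), and the 3 most extreme members of each list each way, with a few genes fixed by name. Hells, Mcm6, Ccne2, Cdkn1b, Gapdh, Coro1a, Itgb2, Cst3, Ctss, H2-Eb1, Klra17, Cd300lf and Tyrobp lie outside this rule and were chosen after their values were seen. The members and the lists were chosen with earlier results of these data known. No doublet caller was run. Instead the 5% of cells with the most genes were left out as an alternative. Sequence shared between genes was counted as 50-base stretches of annotated transcripts found in another gene. Promoters are the 250 bases upstream in RefSeq's annotation of GRCm38.p6. Steps were tested on simulated data. The work was done in Python 3.11.15 with pandas 2.3.3, numpy 2.4.6, matplotlib 3.10.9 and scipy 1.17.1. Some results are not reported here.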

Additional observations from a re-analysis of the deposited data

How the results depend on the processing

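No paired analysis was possible because the replicate numbers in the labels only count cells within a gate and no test was made. The 30 genes with the largest differences kept their direction in all 480 recomputed values, and 2 of these, for Cox6a2 and Snrpe on the log2 of the mean TPM, were under 1 in size. The 30 genes were chosen on the same cells, so these values are no independent check of them. With a pseudocount of 0.1, 6.42% of tested genes were higher and 37.8% lower, with medians of -2.36 for replication and -2.03 for nuclear oxidative phosphorylation; with 10, 0.945% were higher and 6.84% lower, with medians of -0.97 for replication and -0.65 for ribosome biogenesis. On the log2 of the mean TPM, 11.7% were higher, with medians of -0.96 for replication, -0.36 for oxidative phosphorylation, -0.53 for the proteasome and -0.47 for the cytoskeleton, while Dntt (-0.40), Ctps2 (0.22) and Egr1 (-0.043) changed sign. Size factors gave 4.41% higher genes. Among 19 pDC and 31 pre-DC of like gene number 6.42% were higher, the medians were -0.39 for glycolysis and 0.87 for homing receptors, and 58.1% of pre-DC carried replication genes; the monocyte median (0.16) and Ier2 (0.23) changed sign. Without cells carrying cycle genes, and with genes chosen anew, 8.28% were higher and the medians were -0.16 for replication, -0.021 for mitosis and -0.027 for glycolysis; the median of G1 genes (0.27), Pcna (0.45), Dut (0.19), Psmb5 (1.47), Tapbp (0.63) and Lamp2 (0.58) changed sign. Against the pre-DC of the SiglecH-Ly6C- run alone 4.84% were higher, and the medians of MHC class II (-0.39) and of sensing (0.11), and H2-Ab1 (-0.39), changed sign. With genes in 50% of cells 4.14% were higher and 35.04% lower, the medians were -1.77 for glycolysis, 2.81 for MHC class II and 0.97 for homing receptors, and that of B lineage markers (0.60) changed sign; with genes in any cell 1.29% were higher and 9.71% lower, and glycolysis had -0.35. Centring on the median of all genes, chosen after seeing the data, gave 6.86% higher and 10.7% lower. The higher genes were 11.7% of all counted ones, against 28.6% on the log2 of the mean TPM, 26.2% among cells of like gene number, 29.8% without cells carrying cycle genes and 39.2% after centring. With at least 5 replication and 3 mitotic genes asked for, 29.6% of pDC carried the first and 29.6% the second, against 85.7% and 60% of pre-DC; with 12 replication genes 18.5% of pDC and 58.6% of pre-DC did. At 1 TPM replication and mitotic genes were carried by 81.5% and 70.4% of pDC and by 95.7% and 85.7% of pre-DC, and at 100 TPM replication genes by 50% of pre-DC. The causes of these shifts were not tested.

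Each gate is 1 sample from an unknown number of mice, and pDC and pre-DC share no run. TPM keeps no depth, and pDC showed fewer genes per cell than pre-DC, so a transcript at 0 is one not captured at the depth of that cell.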
